A study of Saccharomyces cerevisiae with 27 samples.

Results

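The genes described here are the aminoacyl-tRNA synthetases of Saccharomyces cerevisiae, 33 genes taken by name from a fixed list, of which 20 serve the cytosol and 13 the mitochondrion. Each had 1 probe set naming that gene alone, so all 33 were measured among 5656 tested genes. The cytosolic group holds 18 enzymes or enzyme subunits, the glycyl enzyme copy GRS2 and the cofactor ARC1. Of the enzymes other than GRS2, ALA1, GRS1, HTS1 and VAS1 are known to supply both compartments from 1 gene and are counted here as cytosolic.

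Aminoacyl-tRNA synthetases join each amino acid to its tRNA and so supply the ribosome with charged tRNA. They fall into 2 unrelated structural classes, I and II, and yeast makes separate enzymes for many amino acids in the cytosol and in the mitochondrion, all encoded in the nucleus. The mitochondrial enzymes serve the few proteins translated inside the organelle. Uncharged tRNA is the signal that activates the kinase Gcn2, which raises translation of the transcription factor Gcn4 in amino acid starvation.

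Transcript levels came from 27 one-colour Affymetrix arrays of the strain X2180-1A, grown in aerated batch fermentors on minimal medium with glucose at 28 °C. Stressed cultures were brought to 41 °C in mid-exponential growth at an OD600 of 0.50 and sampled after 10, 30, 60, 120, 240 and 360 min. Other cultures were left at 28 °C as controls, and their samples of 0, 120 and 240 min had an OD600 of 0.50, 0.88 and 1.5. Each of the 9 groups held 3 arrays from 3 replicate cultures. All groups shared the strain and the medium, the 6 heat times share the control arrays of 0 min, and growth density rose with time in the controls. The comparisons ask how the transcript of each synthetase followed the time spent at 41 °C.

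Levels are quantile normalized MAS5 intensities, given in the order of replicates 1, 2 and 3. Changes are differences of log2(intensity + 113.81) ± SE, an offset that understates the change of dim genes. A gene is called higher or lower where the adjusted p of limma, fitted over all 5656 genes, is under 0.05. Arrays carried equal amounts of total RNA and were quantile normalized, so a level is relative to the other measured genes. A change common to most transcripts would not show. Fewer cells expressing a gene and less of its RNA per cell cannot be told apart. With 3 arrays a group, precision is limited by their number.

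Replicate arrays correlated with r of 0.983 to 0.997 across genes. Heat arrays differed from control arrays in other ways as well. The mean of 19 probe sets for non-yeast transcripts, a measure of array background, was 91.2 to 111 on the 9 control arrays, 65.6 to 108 at 10 min and 39.7 to 78.1 on the 15 later heat arrays. The 3' to 5' ratio of SRB4, a measure of RNA and labelling quality, was 1.98 to 2.81 in controls, 2.97 to 3.39 at 10 min and 3.44 to 5.62 later, while that of ACT1 was 0.898 to 1.01, 0.947 to 1.03 and 1.00 to 1.19. The part of these measures in the changes was not tested, except that the background was subtracted or entered as a term in alternative fits.

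As a group the cytosolic synthetase transcripts were lowest at 30 min and then rose again in part. The median of the mitochondrial ones did not fall at 30 min. The median change of the 20 cytosolic members against control at 0 min was -0.29 after 10 min, -1.77 after 30 min and -0.53 after 60 min. It was -0.33, -0.28 and -0.26 after 120, 240 and 360 min. Over the 13 mitochondrial members the medians at these 6 times were -0.01, 0.24, 0.01, 0.25, 0.12 and 0.10. Over all 5656 genes they lay between -0.04 and 0.0045. Under other settings of scaling, offset, background and filter, the cytosolic median lay between -1.95 and -1.75 at 30 min and between -0.82 and -0.44 at 60 min. With arrays scaled to the same median it was -0.57, -0.56 and -0.56 at the last 3 times, the lowest of these settings there. The mitochondrial median lay between 0.15 and 0.39 at 30 min, between -0.064 and 0.33 at 60 min and between -0.061 and 0.39 at 360 min, each time lowest with the background level as a term and highest with the background subtracted. On single arrays the median deviation of the cytosolic members from the 0 min controls was -1.85, -1.84 and -1.60 at 30 min, and on no other heat array was it below -0.58. The cytosolic median was below the mitochondrial one on each of the 18 heat arrays, with differences from -2.07 to -0.26. It was also below on some control arrays, where the differences ran from -0.13 to 0.06.

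**Figure D1:**
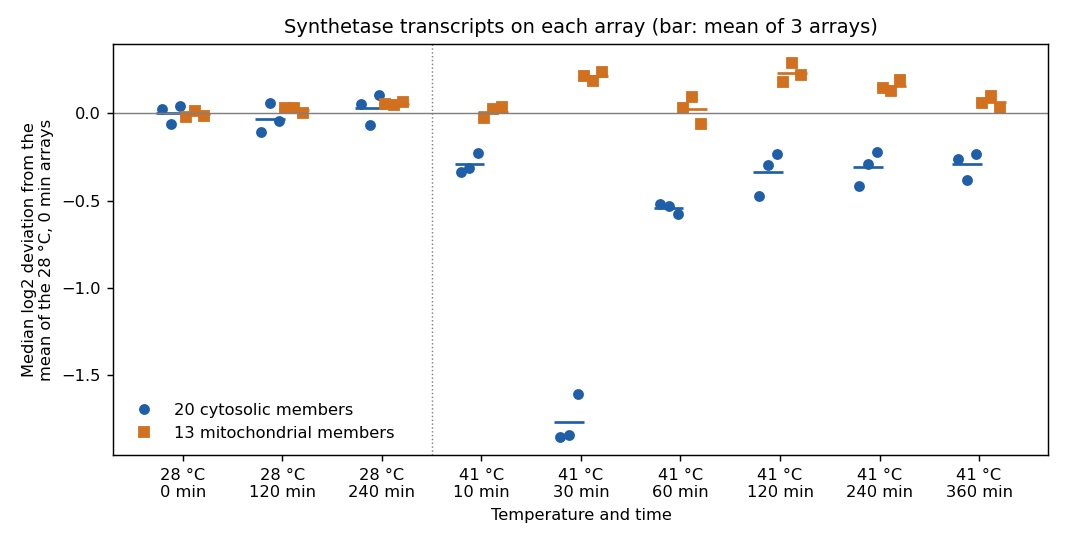
Median log2 deviation of the 20 cytosolic (blue circles) and 13 mitochondrial (orange squares) members from their mean on the arrays of 28 °C at 0 min, with 1 point per array and class and a bar at the mean of 3 arrays. The 3 arrays at 30 min sit between -1.85 and -1.60 for the cytosolic members, while the mitochondrial members stay between -0.06 and 0.29 on all arrays.

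At 30 min, 19 of the 20 cytosolic members were lower than in the 0 min controls and 1, GRS2, was higher. Over all genes, 40.2% were called lower and 40.7% higher in this comparison. Of the 19, 16 were at least 2-fold lower, against 14.2% of all genes. Mean levels of the cytosolic members ranged from 10.8% to 199% of the control, with a median of 26.3%, and 9 of the 20 lay under 25%. The groups of arrays did not overlap for any of the 20, as for 82.4% of all genes.

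The leucyl enzyme gene CDC60 had the largest fall of the 33 members. Its intensities were 2719, 2599 and 2807 at 0 min, 1275, 1419.8 and 1309.6 after 10 min and 249, 321 and 305 after 30 min at 41 °C. All 3 arrays at 30 min lay below all others of this gene, at a mean of 10.8% of the control. The change was -2.80 ± 0.12 (adjusted p = 1.43e-16). It was still -1.49 ± 0.12 at 60 min, when the arrays read 674, 1109 and 929. At 360 min they read 1519.6, 1699 and 1743, again below every control array (-0.68 ± 0.12 (adjusted p = 2.29e-05)).

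DED81, the cytosolic asparaginyl enzyme, read 3168, 3077 and 3053 in the controls and 367, 450.3 and 341 at 30 min, a change of -2.69 ± 0.09 (adjusted p = 1.46e-18). The isoleucyl enzyme gene ILS1 read 2161, 2049.5 and 1959 against 296, 283 and 321, a change of -2.39 ± 0.06 (adjusted p = 1.19e-20). For both, every array at 30 min lay far below every control array. DED81 stood at 38.9% of the control at 60 min and 59.8% at 360 min, and ILS1 at 53.6% and 57.6%, on the scale of mean intensities. The difference between these genes was not tested.

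Other charging enzymes of the cytosol fell by less at 30 min. The threonyl enzyme THS1 changed by -2.09 ± 0.08, the seryl enzyme SES1 by -1.99 ± 0.09, the lysyl enzyme KRS1 by -1.82 ± 0.10 and the tryptophanyl enzyme WRS1 by -1.49 ± 0.09. Their adjusted p values ran from 1.09e-17 for THS1 to 5.86e-13 for WRS1. Smaller falls still were those of the glutaminyl enzyme GLN4 (-1.01 ± 0.10), the glutamyl enzyme GUS1 (-1.01 ± 0.08), the tyrosyl enzyme TYS1 (-0.80 ± 0.08) and the aspartyl enzyme DPS1 (-0.72 ± 0.09). DPS1 read 4926, 4116 and 4938 in the controls and 2551, 2722 and 3071 at 30 min, so even this smaller fall left no overlap (adjusted p = 9.25e-08).

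**Figure D2:**
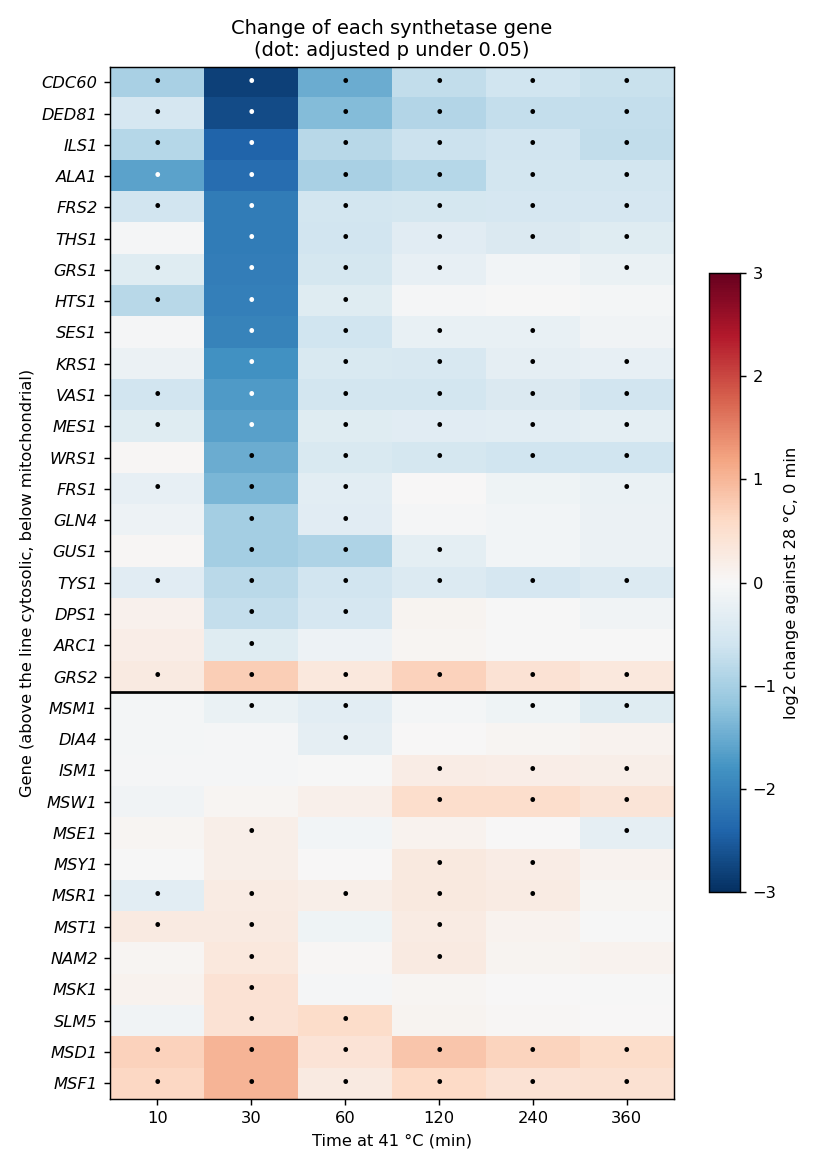
Log2 change of each of the 33 members at 6 times at 41 °C against 28 °C at 0 min, with the cytosolic members above the black line, the mitochondrial ones below it, blue for lower and red for higher. A dot marks an adjusted p under 0.05, and the column of 30 min holds the darkest blue, -2.80 for CDC60.

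At 10 min the cytosolic members were at different stages. Of the 20, 11 were lower, GRS2 was higher and 8 were not called, against 38.8% lower and 33.8% higher among all genes. ALA1, the alanyl enzyme, had dropped furthest, from 3884, 3641 and 3535 in the controls to 1075, 1235 and 1087, with no overlap (-1.61 ± 0.06 (adjusted p = 2.31e-16)). This was 70.2% of its log2 fall at 30 min, when it read 615, 703 and 664. HTS1, ILS1 and CDC60 had covered 40.5%, 35.8% and 34.4% of theirs. TYS1 had covered 43.4%, but of a small fall.

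THS1 and SES1 had hardly moved at 10 min. THS1 read 3641, 3113 and 3459 in the controls, 3318, 3181 and 3505 at 10 min and 654, 714 and 769 at 30 min. The first groups overlap and the last stands apart, and the change from 10 to 30 min was -2.06 ± 0.08 (adjusted p = 1.43e-16). SES1 changed by -0.04 ± 0.09 (adjusted p = 0.688) at 10 min and by -1.95 ± 0.09 from 10 to 30 min. WRS1, GUS1 and DPS1 had values of 0.03, 0.05 and 0.14 at 10 min, which were not called. Between 10 and 30 min 19 cytosolic members fell and GRS2 rose, where 26% of all genes were lower and 33.5% higher.

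The fall was partly undone by 60 min. From 30 to 60 min 17 of the 20 rose, 1 (GRS2) fell and 2 (GUS1 and ARC1) were not called, against 32.2% of all genes higher and 39.4% lower. HTS1, the histidyl enzyme, rose the most in this step, by 1.67 ± 0.10, from 652, 841 and 740.2 to 2729, 2588 and 2508. GUS1 stayed low, at 1563, 1912 and 1939.9 after 30 min and 2107, 1725 and 1876 after 60 min, and these groups overlap (0.07 ± 0.08 (adjusted p = 0.439)). It rose between 60 and 120 min, by 0.65 ± 0.08 (adjusted p = 3.12e-06). Against the 0 min controls 18 cytosolic members were still lower at 60 min, GRS2 was higher and ARC1 was not called, beside 37.4% of all genes lower and 31.8% higher. Only CDC60 and DED81 were still at least 2-fold lower at that time, against 3.89% of all genes.

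From 60 to 120 min 12 cytosolic members rose, GRS2 among them, and none fell, with 18.3% of all genes higher and 15.7% lower. After that the levels hardly moved. From 120 to 240 min, ALA1 rose by 0.30 ± 0.06 (adjusted p = 0.00165) and GRS2 fell by 0.26 (adjusted p = 0.0131), and the other 18 were not called, where 10% of all genes were higher and 11% lower. From 240 to 360 min none of the 20 was called by limma, with 3.91% of all genes higher and 4.19% lower. Between the first and the last heat time, 10 and 360 min, 4 cytosolic members rose and 5 fell, and 4 mitochondrial members rose and 4 fell, where 35.6% of all genes were higher and 37% lower. ALA1 (1.05 ± 0.06) and HTS1 (0.77 ± 0.10) were the largest rises of the cytosolic members and WRS1 (-0.62 ± 0.09) the largest fall. The fall of DED81 (adjusted p = 0.034) had an adjusted p of 0.0563 with the replicate block, and ARC1 (adjusted p = 0.052) one of 0.0463.

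**Figure D3:**
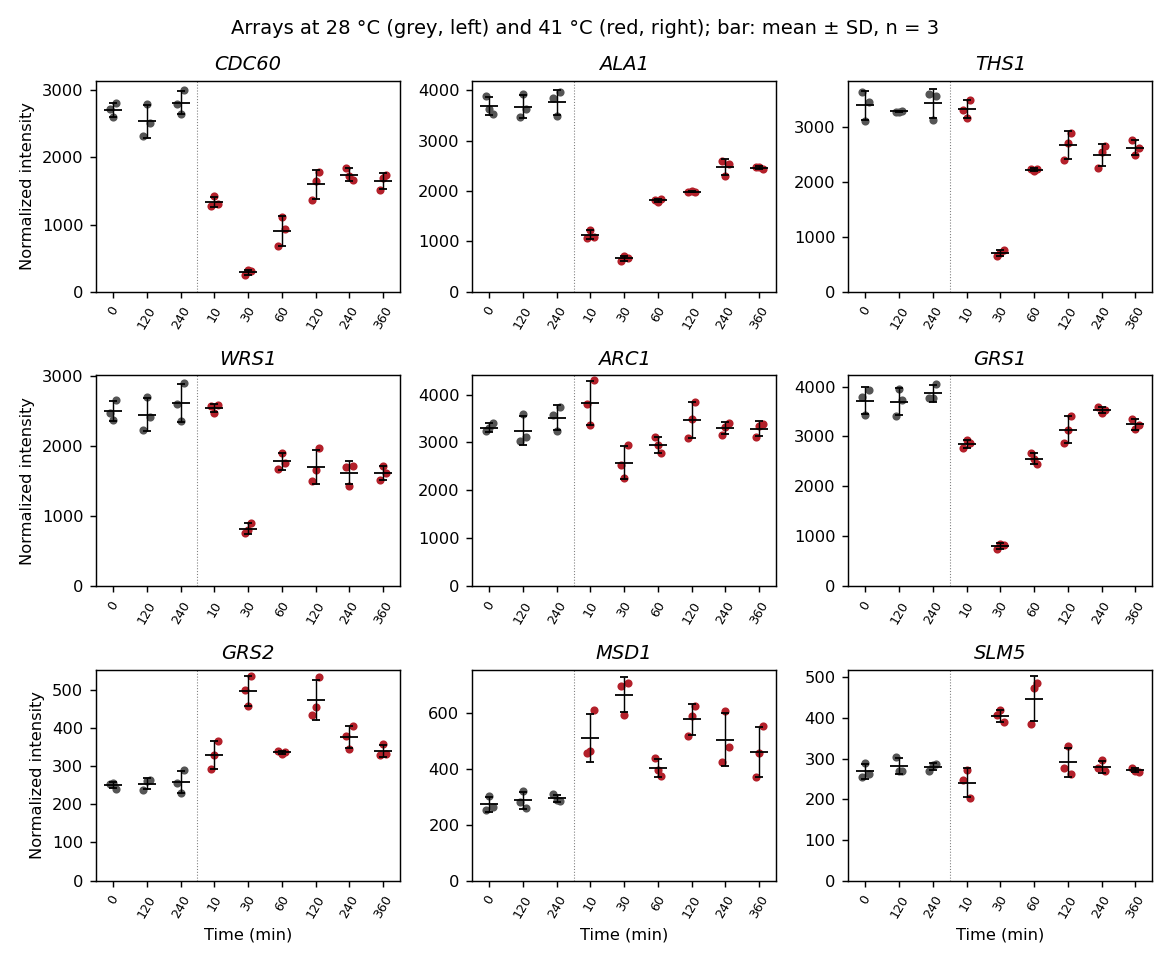
Normalized intensity of 9 members on every array, with controls at 28 °C in grey on the left of each panel, heat times at 41 °C in red on the right, and mean ± SD of 3 arrays as bars. CDC60, ALA1, THS1, WRS1 and GRS1 have their lowest arrays at 30 min, and GRS2, MSD1 and SLM5 lie above their controls at that time.

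Many cytosolic members did not return to the level of the 0 min controls within 360 min. No control was sampled at 360 min, so no comparison of the same time exists there. Against the 0 min controls 14 were lower at 120 min (36.2% of all genes lower, 32.7% higher), 12 at 240 min (34.1% and 29%) and 13 at 360 min (35.2% and 31.8%), and GRS2 was higher each time. Called lower at all 6 heat times were 8 of the 20, namely ALA1, CDC60, DED81, FRS2, ILS1, MES1, TYS1 and VAS1, or 40% of the cytosolic members beside 0% of the mitochondrial ones and 14.7% of all genes. None of the 20 was at least 2-fold lower at 120, 240 or 360 min, against 3.87%, 2.42% and 2.76% of all genes. At 360 min ILS1 (-0.74 ± 0.06), DED81 (-0.71 ± 0.09), CDC60 (-0.68 ± 0.12) and WRS1 (-0.60 ± 0.09) were lowest, and their adjusted p ran from 1.22e-10 to 2.29e-05.

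WRS1 kept to a plateau. It read 2466, 2363 and 2649 in the controls, 1668, 1899.7 and 1761 at 60 min and 1518, 1705 and 1609 at 360 min, with every heat array from 30 min on below every control array. HTS1, DPS1 and GLN4 by contrast were not called at 120, 240 or 360 min. HTS1 at 360 min read 3483, 2914 and 3430.3, which overlapped with its controls at 3645, 3019 and 3591.

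Some of the late calls lay near the threshold and depended on single arrays. At 120 min SES1 (-0.21) lost its call without replicate 1, 2 or 3 of the controls at 0 min or replicate 1 or 2 of the heat at 120 min (values without 1 array from -0.30 to -0.11). At 240 min KRS1 (-0.26) lost it without replicate 1 or 3 of the controls at 0 min or replicate 1 of the heat at 240 min (values without 1 array from -0.33 to -0.16), and SES1 (-0.23) without replicate 1 or 3 of the controls at 0 min or replicate 1 or 2 of the heat at 240 min (values without 1 array from -0.27 to -0.20). At 360 min FRS1 (-0.19) lost it without replicate 3 of the controls at 0 min (values without 1 array from -0.24 to -0.14). GRS1 (-0.19) did so without replicate 1 or 3 of the controls at 0 min or replicate 2 of the heat at 360 min (values without 1 array from -0.25 to -0.15), and KRS1 (-0.24) without replicate 1 or 3 of the controls at 0 min or replicate 2 or 3 of the heat at 360 min (values without 1 array from -0.30 to -0.15). With arrays scaled to the same median in place of quantile normalization, 19 of the 20 were lower at 240 min, beside the 12 above.

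The control cultures showed no such change while their density rose. None of the 33 members was called by limma between 0 and 120 min or between 0 and 240 min at 28 °C, where 0% and 0.0707% of all genes were called. Group means of the cytosolic members stayed between 87.8% and 108% of the 0 min level, and those of the mitochondrial members between 93.4% and 118%.

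Measured against controls of the same time, the late heat samples gave similar counts. At 120 min 14 cytosolic members were lower and GRS2 higher (35.6% of all genes lower, 33.3% higher), and at 240 min 11 were lower and GRS2 higher (33% and 28.3%). The count at 240 min was 17 in the intensities as deposited and 19 with arrays scaled to the same median. WRS1 stood at -0.66 ± 0.09 (adjusted p = 2.62e-06) and ALA1 at -0.58 ± 0.06 (adjusted p = 6.59e-08). At 120 min GUS1 (-0.23) lost its call without replicate 1 or 2 of the controls at 120 min or replicate 1 of the heat at 120 min (values without 1 array from -0.27 to -0.19). SES1 (-0.24) lost it without replicate 2 or 3 of the controls at 120 min or replicate 1 of the heat at 120 min (values without 1 array from -0.33 to -0.14), and TYS1 (-0.24) without replicate 2 of the controls at 120 min or replicate 1 of the heat at 120 min (values without 1 array from -0.29 to -0.20). The difference between the heat effects at 240 and 120 min ranged from -0.29 to 0.27 over the 33 members. None passed the threshold of limma, 5 had an unadjusted p under 0.05, and 10.6% of all genes were called.

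The 2 glycyl enzyme genes moved in opposite directions. GRS1 makes the main enzyme, and GRS2 is a copy of it that is dispensable in ordinary growth. GRS1 read 3799.7, 3422 and 3932 in the controls and 744, 847 and 817 at 30 min (-2.06 ± 0.07 (adjusted p = 1.51e-18)). GRS2 read 253, 257 and 242 and 502, 458 and 536 (0.75 ± 0.07 (adjusted p = 1.65e-09)), with all heat arrays above all controls. The within-array difference GRS2 minus GRS1 changed by 2.81 ± 0.11 at 30 min, with no overlap, and the exact two-sided permutation p was 0.1, the smallest that 3 against 3 arrays allow.

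GRS2 was higher than at 0 min at every heat time, with changes of 0.28, 0.75, 0.30, 0.69, 0.43 and 0.32. It had peaks at 30 and at 120 min. Its arrays read 341, 332 and 337 at 60 min and 435, 455 and 534 at 120 min, which do not overlap, and the rise between them was 0.38 ± 0.07 (adjusted p = 0.000317). Hybridization of one glycyl gene's RNA to the other's probes was not tested.

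The phenylalanyl enzyme is made of a pair of different subunits, FRS1 and FRS2, and their transcripts did not fall by the same amount. FRS2 read 2062, 2009 and 2092 in the controls and 353, 450.1 and 377 at 30 min (-2.10 ± 0.08 (adjusted p = 9.9e-18)). FRS1 read 5646, 5321 and 6194 and 1889.6, 2290.3 and 2239 (-1.37 ± 0.07 (adjusted p = 5.81e-15)). Within arrays, FRS2 minus FRS1 changed by -0.73 ± 0.07 at 30 min and by -0.54 ± 0.08 at 120 min. Its arrays lay below those of the control at all 6 heat times, each with an exact two-sided permutation p of 0.1. At 120 min FRS1 was at 0.02 and not called, and with arrays scaled to the same median it turned to -0.29 (lower).

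ARC1, the cofactor that binds tRNA and holds the methionyl enzyme MES1 and the glutamyl enzyme GUS1 in a complex, changed less than its partners at 30 min. It read 3229, 3299.8 and 3401 in the controls and 2525, 2267 and 2949 at 30 min, without overlap (-0.35 ± 0.09 (adjusted p = 0.00147)). MES1 read 3924, 3745 and 3987 and 1074, 1151 and 1297 (-1.64 ± 0.07 (adjusted p = 4.24e-16)). Within arrays the difference MES1 minus ARC1 changed by -1.28 ± 0.08 and GUS1 minus ARC1 by -0.66 ± 0.13. Neither overlapped with the control, and both had an exact two-sided permutation p of 0.1.

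ARC1 was called lower at 30 min alone among the 6 heat times. At 10 min it read 3807, 3365 and 4296, a value of 0.19 with an adjusted p of 0.0664, and this passed the threshold without replicate 2 of the heat at 10 min or replicate 3 of the heat at 30 min (values without 1 array from 0.11 to 0.28) and, at an adjusted p of 0.0496, with the replicate block. Its value at 120 min, 0.06, was not called, and it turned to -0.20 with arrays scaled to the same median. MES1 was lower at every heat time and stayed near -0.33 from 60 min on, with -0.37 at 60 min and -0.29 at 360 min.

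The 4 genes known to supply both compartments followed the cytosolic group. ALA1, GRS1, HTS1 and the valyl enzyme VAS1 were lower at 10, 30 and 60 min, with a median of -2.05 at 30 min and values from -2.29 to -1.71. VAS1 read 2074, 2109 and 1886 in the controls and 535, 500.2 and 588 at 30 min (-1.71 ± 0.08 (adjusted p = 6.59e-16)), and 1226, 1351 and 1377 at 360 min (-0.58 ± 0.08 (adjusted p = 7.02e-07)). Its heat arrays lay below all of its control arrays throughout. The arrays do not separate the cytosolic and mitochondrial forms made from such a gene.

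The mitochondrial synthetases took another course. At 30 min 8 of the 13 were higher than in the 0 min controls, 1 was lower and 4 were not called, where 40.7% of all genes were higher and 40.2% lower. Their mean levels ran from 82.8% to 388% of the control, with a median of 123%. The 388% is that of MSF1, whose control arrays lay below the background, and the next was MSD1 at 245%. At 10 min 3 were higher and 1 lower (33.8% of all genes higher, 38.8% lower), and at 60 min 4 were higher and 2 lower (31.8% and 37.4%). At 120 min 8 were higher and none lower (32.7% and 36.2%). At 240 min 6 were higher and 1 lower (29% and 34.1%), and at 360 min 4 were higher and 2 lower (31.8% and 35.2%). The counts higher at 10, 60 and 360 min are at or below the share of all genes. The lowest of the 6 heat times was 30 min for 19 of the 20 cytosolic members and for 1 of the 13 mitochondrial members, ISM1.

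These mitochondrial counts depended on scale and background more than the cytosolic ones. In the intensities as deposited, which put the median of all genes at up to 0.14, 7 were higher and 1 lower at 30 min, 13 and 0 at 120 min and 11 and 0 at 360 min. With the background subtracted, which puts that median at 0.12 to 0.16 from 30 min on, 12 were higher and 0 lower at 30 min. With the background level as a term 6 were higher and 2 lower. At 360 min these counts were 10 and 1 with subtraction, and 1 and 2 with the term. Several members are dim. At less than 2 times the background lay MSF1 on 12 of 27 arrays, MST1 on 5, MSW1 on 11, ISM1 on 13 and DIA4 on 16.

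MSD1, the mitochondrial aspartyl enzyme, was higher at all 6 heat times. It read 252, 301 and 265 in the controls, 458, 465 and 611 at 10 min and 698, 593 and 708 at 30 min, with every heat array above every control array (1.01 ± 0.11 (adjusted p = 1.83e-08)). It read 439, 395 and 375 at 60 min (0.42 ± 0.11 (adjusted p = 0.00234)) and 372, 456 and 552 at 360 min (0.56 ± 0.11 (adjusted p = 0.000161)). With the background level as a term its value at 60 min turned to -0.06 and was not called.

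MSF1, the mitochondrial phenylalanyl enzyme, also rose at all 6 times. Its arrays read 59.2, 71.1 and 59.9 in the controls, 242, 232 and 264 at 30 min and 129, 132 and 129 at 360 min, with no overlap. The changes were 1.02 ± 0.06 (adjusted p = 1.02e-13) and 0.46 ± 0.06 (adjusted p = 4.98e-07). All of its control arrays lay below the mean of the non-yeast probe sets on control arrays, so the size of its rise is uncertain.

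Several members rose at 30 min and came back. The mitochondrial lysyl enzyme MSK1 read 577, 573 and 577 in the controls and 865, 766 and 821 at 30 min (0.43 ± 0.08 (adjusted p = 2.04e-05)), and it was not called at any other heat time. With the background level as a term it was lower at 120 min (-0.29) and 240 min (-0.33), and in the intensities as deposited it was higher at 360 min (0.19). SLM5, the asparaginyl enzyme, read 255, 289 and 261 in the controls, 406, 419.8 and 391 at 30 min (0.44 ± 0.08 (adjusted p = 1.03e-05)) and 384, 474 and 485 at 60 min (0.55 ± 0.08 (adjusted p = 8.68e-07)). Its arrays at those times lay above all others of the gene. From 60 to 120 min it fell by 0.47 (adjusted p = 4.59e-05), and it was not called against the controls at later times.

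NAM2, the leucyl enzyme, which also takes part in splicing of mitochondrial introns, was higher at 30 min (0.33 ± 0.09 (adjusted p = 0.00142)) and at 120 min (0.27 ± 0.09 (adjusted p = 0.00806)). The call at 120 min was lost without replicate 3 of the heat at 120 min (values without 1 array from 0.19 to 0.32), and with the background level as a term the value was -0.12. MST1, the threonyl enzyme, was higher at 10, 30 and 120 min, with 0.26, 0.26 and 0.25. At 60 min it read 158, 170.0 and 145 beside 192, 159.7 and 206 in the controls, which overlap.

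MSR1, the mitochondrial arginyl enzyme, was the only mitochondrial member called lower at 10 min. It read 401, 408 and 456 in the controls, 302, 319 and 333 at 10 min (-0.31 ± 0.06 (adjusted p = 7.01e-05)) and 496, 494 and 561 at 30 min (0.24 ± 0.06 (adjusted p = 0.000992)). The arrays at 10 min lay below and those at 30 min above all 3 controls, and the step between them was 0.55 ± 0.06 (adjusted p = 4.16e-08). It stayed higher until 240 min (0.24 ± 0.06 (adjusted p = 0.00132)). The call at 60 min (0.16) was lost without replicate 1 or 2 of the controls at 0 min or replicate 2 of the heat at 60 min (values without 1 array from 0.13 to 0.21).

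Another group of mitochondrial members was higher late. MSW1, the tryptophanyl enzyme, read 151, 156 and 157 in the controls, 140.3, 185 and 171 at 30 min and 223, 318 and 288 at 120 min. It overlapped with the controls at 30 min and stood above them at 120 min (0.53 ± 0.08 (adjusted p = 5.31e-06)), 240 min (0.53 ± 0.08) and 360 min (0.39 ± 0.08). ISM1, the isoleucyl enzyme, read 122, 124 and 119 in the controls and 151, 174 and 160.3 at 120 min (0.23 ± 0.05 (adjusted p = 0.000707)), and it was also higher at 240 and 360 min. With the background level as a term ISM1 turned to -0.02, -0.03 and -0.09 at these times and was not called. MSY1, the tyrosyl enzyme, was higher at 120 min (0.29 ± 0.09) and 240 min (0.22 ± 0.09), the latter not without replicate 2 or 3 of the controls at 0 min or replicate 1 or 3 of the heat at 240 min (values without 1 array from 0.18 to 0.27). Its late rise is less clear. At 30 min it stood at 0.18 (adjusted p = 0.061), which passed the threshold of limma in 4 of the fits without 1 array. At 360 min it stood at 0.12 and was not called.

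MSM1, the mitochondrial methionyl enzyme, was the member of its compartment that was mostly lower. It read 328, 369.8 and 366 in the controls, 301, 275 and 305 at 30 min (-0.20 ± 0.05 (adjusted p = 0.000817)), 268, 257 and 270.1 at 60 min (-0.31 ± 0.05 (adjusted p = 1e-05)) and 244, 258 and 255 at 360 min (-0.35 ± 0.05 (adjusted p = 1.67e-06)). In none of these 3 did the groups overlap. The calls at 30 and 60 min were lost with the background subtracted, and that at 360 min in the intensities as deposited. At 120 min MSM1 was not called, but it was higher in the intensities as deposited (0.15) and with the background subtracted (0.15). At 240 min it was lower by a small amount (-0.14), a call lost without replicate 2 or 3 of the controls at 0 min or replicate 1 of the heat at 240 min (values without 1 array from -0.18 to -0.11). That value turned to 0.05 in the intensities as deposited and 0.06 with the background subtracted, neither of them called.

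MSE1, the mitochondrial glutamyl enzyme, rose at 30 min (0.17 ± 0.07 (adjusted p = 0.0258)) and was lower at 360 min, when it read 490.1, 482 and 485 against 599.9, 572 and 655 in the controls (-0.27 ± 0.07 (adjusted p = 0.00156)). The call at 30 min was lost without replicate 1 or 2 of the controls at 0 min or replicate 2 of the heat at 30 min (values without 1 array from 0.11 to 0.22). The call at 360 min was lost in the intensities as deposited. MSE1 and MSM1 were the 2 members that changed from 240 to 360 min, by -0.28 ± 0.07 (adjusted p = 0.0139) and -0.22 ± 0.05 (adjusted p = 0.0087). DIA4, a probable seryl enzyme, was lower at 60 min, with 85.4, 60.1 and 76.1 beside 110.2, 122 and 108 in the controls (-0.28 ± 0.06 (adjusted p = 0.000337)). These arrays also had the lower background given above, and with the background subtracted the value was 0.20 and was not called.

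Between 10 and 60 min most of the mitochondrial members that were called moved against the cytosolic ones, but many were not called. From 60 to 120 min members of both compartments rose. From 10 to 30 min 6 of the 13 rose (46.2%), 1, MSM1, fell and 6 were not called. Of all genes 33.5% were higher and 26% lower. From 30 to 60 min 7 fell (53.8%), none rose and 6 were not called, at the time when 17 cytosolic members rose. Of all genes 39.4% were lower and 32.2% higher. With 13 members, the counts in these first 2 steps are not far above the shares of all genes. From 60 to 120 min 10 of the 13 mitochondrial members rose and SLM5 fell, with 18.3% of all genes higher and 15.7% lower. MSE1 (0.20 ± 0.07) was among the 10, and its adjusted p of 0.031 became 0.0605 with the replicate block. From 120 to 240 min none of the 13 was called by limma.

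Against controls of the same time, 8 mitochondrial members were higher and 1 lower at 120 min (33.3% of all genes higher, 35.6% lower), and 5 were higher and 1 lower at 240 min (28.3% and 33%). The 1 that was lower was MSM1 each time. At 120 min its call (-0.12) was lost without replicate 1 or 3 of the controls at 120 min or replicate 1 or 3 of the heat at 120 min (values without 1 array from -0.16 to -0.10). In the intensities as deposited MSM1 stood at 0.06 there and was not called. Its call at 240 min was lost in the intensities as deposited and with the background subtracted. MSD1 (0.59 ± 0.11), MSW1 (0.53 ± 0.08), MSF1 (0.33 ± 0.06), MSR1 (0.22 ± 0.06) and ISM1 (0.15 ± 0.05) were the 5 at 240 min, ISM1 not without replicate 1 or 2 of the controls at 240 min or replicate 2 of the heat at 240 min (values without 1 array from 0.13 to 0.19).

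Among the members, enzymes for the same amino acid could be set against each other within each array for 13 pairs of a cytosolic and a mitochondrial gene. The phenylalanyl subunits FRS1 and FRS2 share MSF1, so the pairs are not all independent. The partners MSF1, MST1, MSW1, ISM1 and DIA4 are dim, and the offset understates their changes. A fall of these genes could hardly show, so the differences of their pairs rest largely on the cytosolic gene. At 30 min the cytosolic gene was the more lowered in 13 of 13 pairs, and the difference of log2 values ran from -3.13 to -0.98 with a median of -2.26. The arrays did not overlap in 13 of 13, where 82.4% of single genes do not. For within-array differences of gene pairs, the share over other pairs of genes was not computed at this or any other time. Each pair had an exact two-sided permutation p of 0.1, the smallest possible for 3 against 3 arrays. YDR341C, a further synthetase gene that is not a member, was also set against MSR1 and is not counted in these pairs. That difference was -2.46 ± 0.08 at 30 min and was also negative without overlap at 60, 120 and 240 min. It was 0.09 ± 0.08 at 10 min and -0.09 ± 0.06 at 360 min, both overlapping with the controls.

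The widest pair differences at 30 min were those of asparagine, DED81 and SLM5, at -3.13 ± 0.09, of leucine, CDC60 and NAM2, at -3.13 ± 0.14, and of phenylalanine, FRS2 and MSF1, at -3.12 ± 0.12. The size of the last is uncertain, since MSF1 lay below the background in the controls. In the first of these pairs the cytosolic gene fell by 2.69 on the log2 scale while SLM5 rose by 0.44. The narrowest were those of tyrosine, TYS1 and MSY1, at -0.98 ± 0.13, and of glutamate, GUS1 and MSE1, at -1.18 ± 0.09. For methionine both MES1 and MSM1 fell, and the difference was -1.44 ± 0.09.

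**Figure D4:**
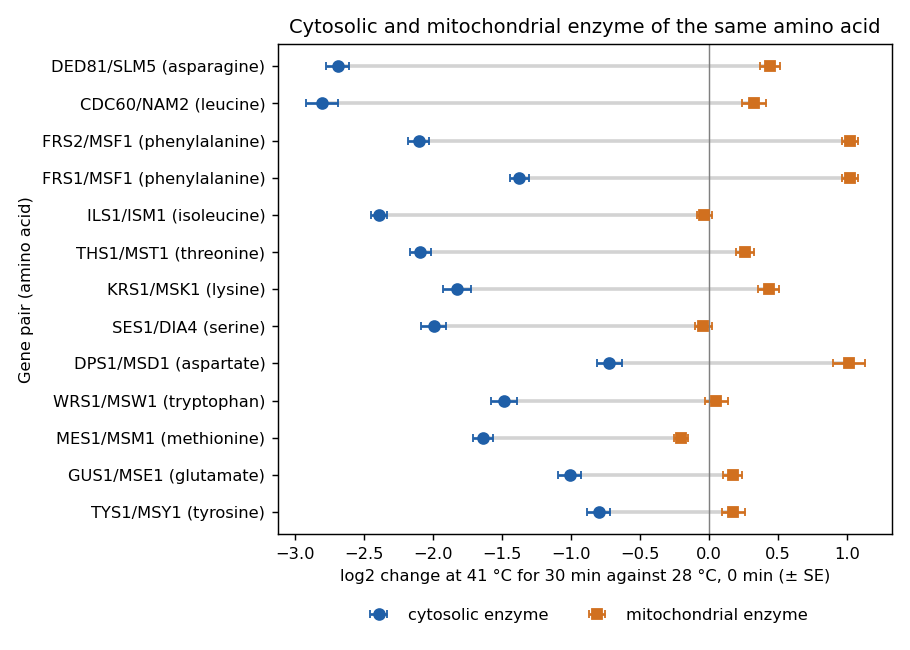
Log2 change at 41 °C for 30 min against 28 °C at 0 min, with SE, of the cytosolic (blue circles) and mitochondrial (orange squares) gene of each of 13 pairs, joined by a grey line. Every blue point lies left of its orange partner, with differences from -0.98 (TYS1 and MSY1) to -3.13 (DED81 and SLM5).

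The median pair difference was widest at 30 min. It was -0.33 at 10 min, -2.26 at 30 min and -0.61 at 60 min, and then -0.71, -0.67 and -0.65 at the last 3 times. The cytosolic gene was the more lowered in 11 of 13 pairs at 10 min, in 13 of 13 at 60, 120 and 240 min and in 11 of 13 at 360 min. At 10 min WRS1 with MSW1 (0.13 ± 0.05) had the opposite sign without overlap, and SES1 with DIA4 (0.02 ± 0.08) had it with overlap. At 360 min GUS1 with MSE1 (0.09 ± 0.08) and MES1 with MSM1 (0.07 ± 0.07) had the opposite sign. Both overlapped with the controls, with exact two-sided permutation p of 0.4 and 0.5. Pairs with the usual sign that overlapped with the controls were GUS1 with MSE1 and TYS1 with MSY1 at 10 min, MES1 with MSM1 at 60 min, GUS1 with MSE1 at 240 min and KRS1 with MSK1 at 360 min. The other end at 360 min was WRS1 with MSW1 at -0.99 ± 0.14. These times share the 0 min controls, so they are not independent repeats. Against controls of the same time the cytosolic gene was the more lowered in 13 of 13 pairs at both 120 and 240 min, where MES1 with MSM1 and SES1 with DIA4 overlapped with the controls at 120 min and GUS1 with MSE1 at 240 min.

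The structural class of the enzyme was set beside the compartment. At 30 min, when 40.2% of all genes were lower and 40.7% higher, 8 of 8 cytosolic class I enzymes were lower, with a median of -1.56, and 10 of 11 of class II, with a median of -2.04. The class II gene that was not lower was GRS2. Of the mitochondrial enzymes, 5 of 6 of class II were higher (median 0.44) and 3 of 7 of class I (median 0.17). The count of class I is near the share of all genes. At 120 min, with 32.7% of all genes higher, the mitochondrial counts were 3 of 6 for class II and 5 of 7 for class I. The classes were not tested against each other.

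Other genes of tRNA charging were read in the same way at 30 min, when 40.2% of all genes were lower and 40.7% higher. CRS1, which charges tRNA with cysteine, and the genes YDR341C and YHR020W were set beside the cytosolic members as further synthetase genes, and all 3 were lower, by -2.34 ± 0.13, -2.22 ± 0.09 and -2.48 ± 0.08. YHR020W read 3060.1, 2939 and 2809.6 in the controls and 431, 455 and 409 at 30 min. CRS1 read 1047, 918 and 894 and 83.7, 91.3 and 117, the latter near background. At 360 min none of the 3 was called, with adjusted p from 0.0994 to 0.845.

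Of 5 further genes of mitochondrial tRNA charging, 3 were higher, 1 was lower and 1 was not called at 30 min, with a median of 0.33, where 40.7% of all genes were higher and 40.2% lower. The subunits of the enzyme that makes glutaminyl-tRNA by amidation, GTF1, PET112 and HER2, stood at 1.36 ± 0.11, 0.33 ± 0.08 and -0.03 ± 0.06, of which HER2 was not called. AIM10, whose product resembles tRNA synthetases, was at 0.41 ± 0.09. FMT1, which formylates the initiator methionyl-tRNA, was at -0.18 ± 0.06 and was lower still at 360 min (-0.48 ± 0.06). GTF1 remained higher at 360 min (1.08 ± 0.11 (adjusted p = 9.74e-09)).

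Genes that process, export and modify tRNA were mostly lower with the cytosolic synthetases. Of 12 genes of tRNA processing and export 10 were lower, 1 higher and 1 not called at 30 min, with a median of -0.61, where 40.2% of all genes were lower and 40.7% higher. The largest changes were those of LHP1 (-2.27 ± 0.11), a chaperone of precursor tRNA, the exporter LOS1 (-1.34 ± 0.08), the 3' end nuclease TRZ1 (-1.26 ± 0.07) and the splicing endonuclease subunit SEN34 (-0.83 ± 0.09). Of 45 measured genes of tRNA modification 40 were lower, 1 higher and 4 not called, with a median of -1.21. TRM1 (-2.43 ± 0.10), NCL1 (-2.30 ± 0.10), TYW1 (-2.18 ± 0.07) and the pseudouridine synthase PUS7 (-2.07 ± 0.07) had the largest changes. Beside these, the median of all genes was 0.0045.

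The genes of these lists fell at different times. TRM1, PUS7 and TRZ1 were already at -2.18 ± 0.10, -1.89 ± 0.07 and -1.33 ± 0.07 at 10 min. LHP1 and TYW1 were at -0.60 ± 0.11 and -1.17 ± 0.07 at that time, and both fell much further afterwards. The medians at 10 min were -0.57 for processing and export, -0.83 for modification and -0.29 for the cytosolic synthetases. PUS7 was still at -1.07 ± 0.07 (adjusted p = 1.95e-11) at 360 min, where TYW1 (-0.08) was not called. At 360 min 27 of the 45 modification genes were lower, 3 higher and 15 not called, with 35.2% of all genes lower and 31.8% higher.

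Factors of mitochondrial translation moved both ways at 30 min, with 5 of 10 higher, 2 lower and 3 not called, and a median of 0.30, where 40.7% of all genes were higher and 40.2% lower. The initiation factor IFM1 (0.96 ± 0.09), the elongation factor MEF2 (0.88 ± 0.11) and the ribosome recycling factor RRF1 (0.79 ± 0.11) were higher. MTO1, which modifies mitochondrial tRNA, was lower (-1.08 ± 0.07). At 120 min 7 of the 10 were higher and none lower, beside 8 and 0 of the 13 mitochondrial synthetases and 32.7% and 36.2% of all genes.

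All 6 genes of the general control list, which holds the response to uncharged tRNA, were lower at 30 min, as were 40.2% of all genes, with a median of -1.02. GCN4 read 6712, 7100.5 and 6712 in the controls, 3669, 4123 and 3135 at 10 min, 3294, 3713 and 2928 at 30 min (-1.03 ± 0.08 (adjusted p = 4.46e-11)) and 6134, 6341 and 7063 at 60 min. Its arrays at 10 and 30 min lay below all controls and those at 60 min overlapped with them. The kinase GCN2 was at -0.51 ± 0.07, its activators GCN1 and GCN20 at -1.34 ± 0.06 and -0.52 ± 0.09, the initiation factor subunit GCN3 at -1.01 ± 0.07 and YIH1, an inhibitor of the activation of Gcn2, at -1.97 ± 0.11. At 360 min 4 of the 6 and 35.2% of all genes were lower, and GCN4 stood at -0.27 ± 0.08 (adjusted p = 0.00695). Levels of GCN4 transcript do not measure its translation, which is where its control is known to lie.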

How the data were processed

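Transcripts of 27 yeast samples were measured on one-colour Affymetrix arrays, 3 in each of 9 groups. The deposited values are linear intensities per probe set, which the authors computed by MAS5, as named per the submitters' processing notes, with version and scaling target not given in the sources used here. The lowest deposited intensity is 20. Of 9335 probe sets, 6504 name 1 gene in the probe annotation, 328 several and 2443 none, and 60 are array controls. For each gene the brightest probe set naming it alone was used, which gave 5656 tested genes.

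Array medians over the tested genes differed by a ratio of 1.28, above the limit of 1.2 set for the deposited scale, so arrays were quantile normalized. The log2 values were computed from the deposited intensities after normalization and addition of 113.81, their 10th percentile before it. The 9 group means were fitted on all 27 arrays with limma 3.58.1 (R 4.3.3), using eBayes with a variance trend. The p values of each comparison were adjusted over all genes after Benjamini and Hochberg, with 0.05 as threshold. Pairs were tested with an exact permutation test over arrays. The fit was also run on simulated data with independent arrays and few changed genes. These data lack the repeated sampling of cultures, the many changed genes and the background shift of the real arrays. The run therefore does not show how the fit behaves under those conditions.

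The members and lists were chosen with earlier results of these data known, so no list was tested. All 33 members could be named. Of lists of up to 6 other genes all were named, and of longer lists up to 4 with the largest change at 30 min among those called. GCN4 levels and those of the other synthetase genes are given by the same rule. Of 46 tRNA modification genes 45 were measured.

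The labels number the replicates, and the design text says that the same cultures were sampled repeatedly, so a number was taken as 1 culture within heat or within control. Deviations of same-numbered heat arrays had a median correlation of 0.125 over 45 pairs (-0.45 to 0.76), of differently numbered ones -0.042. For same-numbered control arrays the median was -0.093. Alternatives changed the scaling, offset, dim filter, probe set rule, variance trend, arrays in the fit, replicate block, culture as a random block, background and each array in turn.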

Additional observations from a re-analysis of the deposited data

How the results depend on the processing

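The count of cytosolic members lower than control was within 1.5 times its value under every alternative in 6 of the 8 comparisons of heat with control, and at 30 min it was 19 each time. The exceptions were 240 min against 0 min, with 19 for arrays scaled to the same median, and 240 min against the control of 240 min, with 17 in the intensities as deposited and 19 for the same median. Mitochondrial counts moved more often. In the intensities as deposited, 13, 10 and 11 mitochondrial members were higher at 120, 240 and 360 min against 0 min, and 0 were lower at 240 and 360 min and in both comparisons with controls of the same time. With the same median, with averages over a gene's probe sets and with only the groups of the comparison, 0 were lower at 240 min against 0 min and at 120 min against its own control. With the background subtracted, 8, 10 and 10 were higher at 60, 240 and 360 min and 9 at 240 min against its own control, while 0 were lower at 30, 60 and 240 min and in both time-matched comparisons, and 1 at 360 min. With the background level as a term, 1, 4, 3 and 1 were higher at 60, 120, 240 and 360 min, 4 and 2 in the time-matched comparisons, and 2, 5 and 1 were lower at 30, 60 and 120 min, 0 and 3 in the time-matched ones. Leaving out genes below the 25th percentile of mean intensity, which drops 5 of the 13, left 1, 4, 3 and 1 higher at 10, 120, 240 and 360 min, 4 and 2 in the time-matched comparisons, and 1 lower at 60 min. The cause of these shifts was not tested, beyond the smaller number of genes in the last. Single values that reversed with the background subtracted, against 0 min unless said, were ISM1 (0.33) and DIA4 (0.33) at 30 min, ISM1 (0.52) and DIA4 (0.20) at 60 min, MSM1 (0.15) at 120 min and (0.059) at 240 min, MST1 (0.39) at 360 min, and in time-matched comparisons MSM1 (0.068) and DIA4 (0.50) at 120 min and MST1 (0.27) and SLM5 (0.23) at 240 min. With the background level as a term they were MSD1 (-0.064) and NAM2 (-0.35) at 60 min, ARC1 (-0.42), MSK1 (-0.29), NAM2 (-0.12) and ISM1 (-0.020) at 120 min, MSK1 (-0.33) and ISM1 (-0.028) at 240 min and ISM1 (-0.095) at 360 min. In time-matched comparisons the term gave ARC1 (-0.40), NAM2 (-0.12) and ISM1 (-0.029) at 120 min and MSK1 (-0.33), ISM1 (-0.082) and SLM5 (0.28) at 240 min. In the intensities as deposited they were MSM1 (0.15 after 120 min, 0.050 after 240 min and, against its own control at 120 min, 0.059), and MSK1 (0.19) and MST1 (0.18) at 360 min. With the same median FRS1 (-0.29) and ARC1 (-0.20) reversed at 120 min. The cause was not tested. Without 1 array at a time, the cytosolic counts lower were 11 to 12, 19, 18, 13 to 14, 10 to 12 and 10 to 14 from 10 to 360 min, and 11 to 14 and 11 to 12 in the time-matched comparisons. The mitochondrial counts higher were then 3, 7 to 9, 3 to 4, 7 to 8, 5 to 7 and 4, and 6 to 9 and 4 to 5, and the counts lower were 1, 1, 2 to 3, 0, 0 to 1 and 2, and 0 to 1 and 1. The 0 at 240 min arose without replicate 2 or 3 of the controls at 0 min or replicate 1 of the heat at 240 min. The 0 in the time-matched comparison at 120 min arose without replicate 1 or 3 of the controls or of the heat at 120 min. With the replicate block 19 cytosolic members were lower at 30 min, no cytosolic count lower and no mitochondrial count changed, and ARC1 at 10 min became called as higher (adjusted p = 0.0496). For successive heat times, a block of the heat arrays alone, added after the data were seen, changed MSE1 from 60 to 120 min (adjusted p = 0.0605) and, from 10 to 360 min, DED81 (0.0563) and ARC1 (0.0463). The culture as a random block changed no call. Mean signal over background limits MSF1, ISM1 and DIA4, at 1.77, 1.90 and 1.59 times the background. A planned search of promoters for motifs was not run, as no sequences were used here.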
